A study of Mus musculus with 208 samples.

Results

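The BXD/RwwJ strains are the newer lines of the BXD recombinant inbred family, which descends from a cross between C57BL/6J and DBA/2J mice. Every BXD line carries its own fixed mosaic of those parental genomes, so that a response can be set side by side in hearts that differ by inherited alleles. The lines described here are all those whose strain label begins with BXD and ends in RwwJ. They account for 46 of the 208 arrays and for 24 strains, of which 22 have both an isoproterenol (ISO) array and an untreated array. BXD69/RwwJ and BXD86/RwwJ have an untreated array only. The whole series holds 87 strains with both conditions, among them 11 older BXD/TyJ strains and 54 other classical and recombinant inbred strains.

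Each array reports RNA from the left ventricle of female mice, with the RNA of several mice of one strain pooled according to the study's methods. ISO-treated mice received 30 µg of ISO per g of body weight per day for 3 weeks by the treatment label and the methods, while the design text gives 20. The label starts this at 8 to 9 weeks of age, and the methods of the study give the mice as 8 to 10 weeks old. Untreated mice were kept for the same 3 weeks without ISO. A separate label gives the tissue an age of 10 weeks in both groups, which falls inside the treatment period. No other agent or engineered allele is listed for either group. The ISO response of a strain is its log2 expression in the ISO array minus that in the untreated array. With 1 pool per strain and condition the replicate is the strain, so the errors below describe the spread among strains and not among mice.

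ISO is a synthetic catecholamine that activates the beta-1 and beta-2 adrenergic receptors. In cardiomyocytes these receptors act through the stimulatory G protein, adenylyl cyclase and cyclic AMP, and they raise the rate and force of contraction. Sustained activation leads in mice to myocyte growth, myocyte loss, infiltration by macrophages and interstitial fibrosis, in which fibroblasts deposit collagen together with the enzymes and inhibitors that process it. Which strains lay down more matrix, and which do not, is the question that a panel of inbred strains is built to address.

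The arrays of the paired strains were alike in signal. Median probe intensity was 124 to 173 in ISO arrays and 110 to 166 in untreated arrays, and 44.8% to 50.1% of probes in ISO arrays and 45.8% to 49.5% in untreated arrays had a detection p under 0.05. Both arrays of a strain always shared a BeadChip, the slide that carries the arrays. The 22 pairs lay on 6 BeadChips, with 4 strains on each of BeadChips 8, 9, 11, 15 and 16 and 2 strains on BeadChip 14.

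Features of the array labels bear on every result that follows. Over 500 probes that vary strongly between strains, 36 of the 44 paired arrays resembled the opposite array of their own strain most closely, and in 17 of 22 strains this held for both arrays. The exceptions were both arrays of BXD50/RwwJ, BXD56/RwwJ and BXD85/RwwJ, the untreated array of BXD45/RwwJ and the ISO array of BXD79/RwwJ. The library labelled BXD50/RwwJ ISO stood furthest apart. Its correlation with the untreated array of KK/HlJ, on another BeadChip, was 0.92 over those probes. It was 0.63 with its next best array, 0.22 with the ISO array of KK/HlJ and -0.09 with the untreated array of its own label. Which of these labels is right was not tested. Results are therefore given for 22 strains and, where it matters, without BXD50/RwwJ.

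Array position followed the treatment. All 22 ISO arrays lay in positions B, D, F or H of their BeadChip and all 22 untreated arrays in positions A, C, E or G, so that position and treatment cannot be told apart in these strains. The rest of the panel is laid out in nearly the same way. Over the whole series 97 of 102 ISO arrays lay in B, D, F or H, and 99 of 106 untreated arrays in A, C, E or G. Only BeadChips 19, 24 and 25 of the series hold untreated-labelled arrays in both kinds of position, 7 of 14 of them in B, D, F or H. Between the 2 kinds of position, 0 probes passed the limma test at adjusted p under 0.05 and 1377 (5.36%) had an unadjusted p under 0.05. Several genes named below differed, in B, D, F and H, in the direction of their ISO response. Lgals3 did so by 1.01 (limma, unadjusted p = 3.3e-05), Gnb3 by -0.88 (0.0019), Ramp1 by -0.90 (0.0030), Tmem82 by -1.09 (0.0065) and Ctnnal1 by 0.93 (0.015). Timp1, Serpina3n, Dct and Myh7 differed by 0.97, 0.77, 1.15 and -0.42, with unadjusted p from 0.10 to 0.43. Others, such as Pdk4 and Ccl6 at -0.60 and -0.30, went against their ISO direction. By BeadChip, Dct was 2.02 log2 units higher in positions B, D, F and H on BeadChip 19, where all 8 arrays are labelled untreated. Dct, among the strongest ISO responses below, was 2.61 higher on BeadChip 24, but 1.33 lower on BeadChip 25. Timp1 differed by 1.94, 1.47 and -1.24 log2 units on these BeadChips in turn, and Lgals3 by 1.25, 0.30 and 0.90. The pair on BeadChip 24 consists of the untreated-only strains, with BXD86/RwwJ in position B. The array of BXD69/RwwJ, in position A, had 40.2% of probes at a detection p under 0.05, fewer than any paired array. Whether the untreated-labelled arrays of these BeadChips carry the right label was not tested.

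Of 25697 probes, 1611 (6.27%) passed both thresholds for the ISO response of the 22 strains. The thresholds were an adjusted p under 0.05 and a log2 fold change beyond 0.2 in either direction, equal to a change of 14.9%. The ISO level was higher at 810 probes (3.15%) and lower at 801 (3.12%). An unadjusted p under 0.05 was reached by 4986 probes (19.4%). Without BXD50/RwwJ the calls numbered 2017, and among the 17 strains whose arrays both resembled their partner they numbered 2269. Fit as unpaired groups, without the strain block, the same arrays gave 790 calls. Counted by gene, at the probe of the highest mean level, 1205 of 16594 genes were called (7.26%), with 619 higher (3.73%) and 586 lower (3.53%). These shares are the background for the gene list counts below.

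Few responses ran the same way in every strain. Across the 22 strains, 50 probes (0.195%) moved in one direction throughout, 22 upward and 28 downward. Without BXD50/RwwJ this held for 174 probes (0.677%) in 21 strains. At 0 probes were the ISO and untreated levels of the 22 strains fully separated.

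The extracellular matrix gave the broadest group of increases. Timp1, the tissue inhibitor of metalloproteinases 1, is secreted by activated fibroblasts and holds back matrix breakdown. Its log2 level was 7.18, 9.47 and 11.60 (lowest, median and highest strain) in ISO hearts and 6.34, 7.14 and 8.59 in untreated hearts. Only the lower end of the ISO range overlapped the untreated range, and Timp1 was higher in ISO hearts of 21 of 22 strains, the exception being the library labelled BXD50/RwwJ. The mean response was 2.27 ± 0.26 (SE, n = 22), a 4.82-fold increase (limma, adjusted p = 3.5e-06), and the strains ranged from -1.05 to 4.30 in BXD61/RwwJ.

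Serpina3n, a secreted serine protease inhibitor of inflamed and remodeling tissue, showed the largest mean change among annotated genes. Its level was 8.05, 10.39 and 12.11 in ISO hearts and 6.46, 7.55 and 9.37 in untreated hearts. The ranges overlapped between 8.05 and 9.37, and 20 of 22 strains had the higher value in ISO. The response was 2.35 ± 0.29 (SE), or 5.10-fold (adjusted p = 8.9e-06), and it ran from -1.32 in BXD50/RwwJ to 4.79 in BXD66/RwwJ.

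Lox, the lysyl oxidase that crosslinks collagen and elastin, reached 5.64, 7.35 and 9.42 in ISO hearts, against 5.09, 6.00 and 7.19 in untreated hearts. It was higher in ISO in 21 strains, and the response of 1.54 ± 0.25 (adjusted p = 2.2e-04) was 4.32 in BXD66/RwwJ. Tnc encodes tenascin C, a glycoprotein that appears at sites of tissue injury. Tnc stood near the array background in untreated hearts, at 4.50, 5.0 and 5.88, and at 4.78, 6.40 and 7.67 in ISO hearts. It rose by 1.28 ± 0.19 (adjusted p = 6.6e-05) and was higher in 20 strains. For dim probes of this kind the offset added before the logarithm makes the fold change an underestimate.

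The fibrillar collagens moved with these genes. Col1a1, a chain of type I collagen, had levels of 8.09, 9.75 and 10.88 in ISO hearts and 7.82, 8.58 and 9.41 in untreated hearts, with 20 strains higher in ISO and a response of 1.05 ± 0.17 (adjusted p = 1.6e-04). Col3a1, which forms type III collagen, rose by 0.89 ± 0.13 with the same count of strains. Of the 47 measured genes for collagens and matrix glycoproteins, 27 rose, 0 fell and 20 did not pass, and the median log2 fold change was 0.31, beside -0.01 over all genes. Mfap4 and Mfap2, which associate with elastic microfibrils, rose by 1.18 and 0.60, and Dcn, a proteoglycan that binds collagen and was already abundant, by 0.26. Without BXD50/RwwJ, 29 of the 47 rose.

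Genes that process the matrix changed in both directions. In the list of collagen processing and crosslinking, 5 of 17 genes rose, among them Loxl2, Loxl1 and the procollagen protease enhancer Pcolce by 0.55, 0.66 and 0.49, and 1 fell, the prolyl hydroxylase subunit P4ha2, by 0.22. Among 30 matrix proteases and inhibitors, 10 rose and 2 fell, a called share of 40%, beside 7.26% over all genes. Mmp14, a membrane-anchored metalloproteinase, rose by 0.84 ± 0.12, and Serping1, the inhibitor of the first complement component, by 0.67 ± 0.09. The genes that fell were Timp4, an inhibitor that the heart expresses at rest, by 0.73, and the collagenase Mmp13, by 0.42. Of 28 genes of transforming growth factor beta (TGF-beta) signaling, 8 rose and 0 fell, led by the secreted glycoprotein Fstl1 at 0.77, the transcription factor Meox1 at 0.69, and the receptors Tgfbr1 and Tgfbr2 at 0.31 each. The called share of this list was 28.6%, beside 7.26% over all genes. Without BXD50/RwwJ, 11 of the 28 rose.

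**Figure D1:**
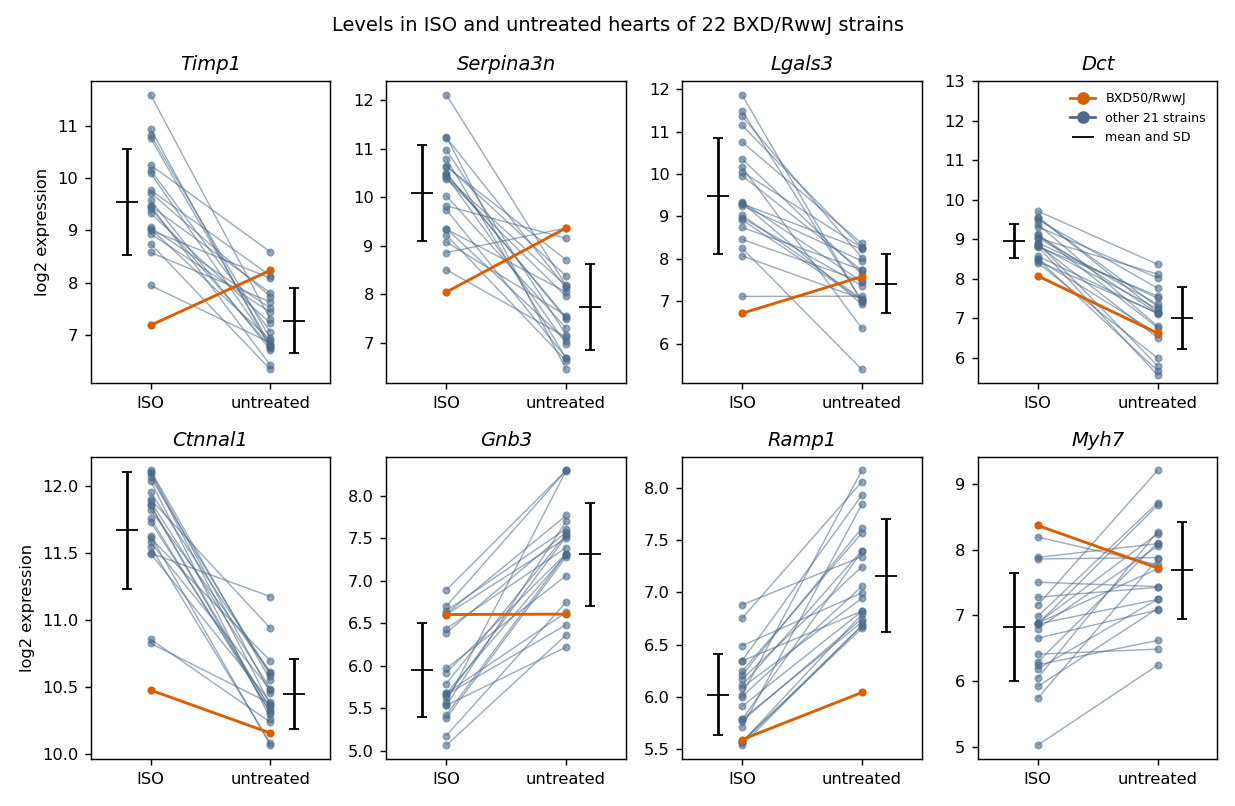
Log2 expression of 8 genes in the ISO (left) and untreated (right) hearts of 22 BXD/RwwJ strains; lines join the arrays of one strain and black bars give the mean and SD of each condition. Dct and Ctnnal1 rise in all 22 strains, while BXD50/RwwJ (orange) runs against most other strains at Timp1, Serpina3n, Lgals3 and Myh7 and is level at Gnb3.

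Macrophage genes formed the second large group. Lgals3 encodes galectin 3, a lectin secreted by activated macrophages that also acts on fibroblasts. Its level was 6.71, 9.31 and 11.87 in ISO hearts and 5.39, 7.47 and 8.36 in untreated hearts. ISO hearts were higher in 20 of 22 strains, and the highest untreated heart lay below the ISO median. The response was 2.07 ± 0.27 (SE), or 4.21-fold (adjusted p = 1.7e-05), with a range from -0.87 in BXD50/RwwJ to 4.89 in BXD66/RwwJ.

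Gpnmb, a transmembrane glycoprotein of lipid-laden macrophages, was the most uneven of the leading genes. It stood at 4.57, 7.74 and 12.71 in ISO hearts and 4.57, 5.64 and 8.23 in untreated hearts, so that in some strains it remained at background. The mean response of 1.99 ± 0.42 (adjusted p = 0.0026) included 7.65 in BXD66/RwwJ and -0.93 in BXD50/RwwJ. The gene has a nonsense allele in DBA/2J mice, and its genotype in these lines was not analysed here.

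The C-type lectin receptors Clec4d and Clec4n, which myeloid cells use to sense fungal and damage products, were steadier. Clec4d lay close to background in untreated hearts, at 4.57, 4.72 and 5.36, and at 4.52, 6.63 and 7.60 in ISO hearts, where 21 strains were higher, and its response was 1.72 ± 0.13 (adjusted p = 1.6e-08). Clec4n rose by 1.54 ± 0.14 in the same number of strains. Ms4a7, a gene of monocyte-derived macrophages, rose by 1.22 ± 0.14.

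In all, 17 of 34 macrophage genes rose, 2 fell and 15 did not pass, with a median log2 fold change of 0.36. The genes that fell were Retnla and Folr2, both known from resident or alternatively activated macrophages. Retnla had levels of 4.60, 5.67 and 8.77 in ISO hearts and 5.49, 7.48 and 9.09 in untreated hearts, was lower in ISO in 21 strains and fell by 1.45 ± 0.17 (adjusted p = 4.7e-06). Folr2 fell by 0.47 and was lower in 17 strains. Whether the falls reflect fewer cells or less RNA per cell cannot be told apart in these bulk samples, and the same holds for the rises.

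Of 31 chemokines and receptors, 10 rose and 0 fell, a called share of 32.3%, beside 7.26% over all genes. Ccl8, a monocyte attractant, rose by 1.29 ± 0.25, while Ccl6, Pf4 and Cx3cl1 rose by 0.56, 0.56 and 0.42. The complement and acute phase list counted 4 of 20 genes higher, C4b at 0.62 (a call lost on leaving out any of 14 single strains), Serping1, and the metallothioneins Mt1 and Mt2 at 0.29 and 0.67. Interferon-stimulated genes and class II major histocompatibility complex (MHC) genes showed 0 calls among 28 and 9 genes, with medians of -0.01 and -0.01, and the interferon-induced Ifitm3 had the smallest p of its list at 0.20 (adjusted p = 0.12). Leaving out BXD50/RwwJ gave 1 interferon-stimulated gene, Ifitm3 (adjusted p = 0.0080), and 0 MHC class II genes.

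Marker genes of other cell types were read beside these groups, and beside the 3.73% of all genes called higher and 3.53% called lower. Fibroblast markers rose at 11 of 17 genes, and their summed linear level was 24186, 32528 and 48085 in ISO hearts and 19188, 24671 and 33453 in untreated hearts, higher in ISO in 20 of 22 strains. Some of those markers are collagens counted above. Among myofibroblast markers 4 of 13 rose (Comp, Tnc, Lox and Meox1), whereas Postn, Cthrc1, Cilp and Thbs4 were detected in no paired array at the probes read. Cardiomyocyte markers were called at 0 of 12 genes, and their sum was 236114, 247429 and 266381 in ISO hearts and 234810, 249827 and 265304 in untreated hearts, higher in ISO in 9 strains. All 12 of these markers were detected in at least 23 of the 46 arrays.

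Markers of blood cells and of further cell types had calls in some lists. Among 9 neutrophil markers S100a8 rose by 1.07 ± 0.18 and S100a9 by 0.54 ± 0.12, both in 19 strains. The list as a whole did not lean, with 5 of 9 genes higher on average and a median of 0.008. Only 2 of the 9 were detected in at least 23 of the 46 arrays, and Ngp, Cxcr2 and Mpo in no paired array. The sum of the neutrophil list was 282, 399 and 1190 in ISO hearts and 226, 282 and 519 in untreated hearts. Mast cell markers rose at 3 of 7 genes, including the proteases Mcpt4 and Cpa3 at 0.44 and 0.38, and the sum was higher in 18 strains. Only 4 of the 7 were detected in at least 23 of the 46 arrays. Among the 17 strains whose arrays match, 1 of the 7 was called. T and natural killer cell, B cell and adipocyte markers were called at 0 of 12, 0 of 5 and 0 of 10 genes. Only 1, 1 and 3 of those genes were detected in at least 23 of the 46 arrays. Endothelial markers counted 1 of 14 lower, the water channel Aqp1 by 0.52, while 9 of the 14 were higher on average (median 0.05). Without BXD50/RwwJ, and also among the 17 strains whose arrays match, 3 endothelial markers were called higher and 1 lower. Skeletal muscle markers counted 3 of 13 lower, including Atp2a1 by 0.40 and Mylpf by 0.26. The neuronal list had 1 of 7 lower, the noradrenaline-synthesizing Dbh by 0.71. Single genes rose in the smooth muscle, erythroid, atrial and lymphatic lists (Cspg4 at 0.26, Alas2 at 0.41, Dkk3 at 1.11 and Pdpn at 0.69), and 2 of 11 in the mesothelial list, with Krt18 at 0.52. The atrial and lymphatic lists leaned the other way, with 2 of 9 and 2 of 5 genes higher and medians of -0.25 and -0.05. Among the 17 strains whose arrays match, 2 atrial markers were called lower and 1 higher. The calls of Alas2, Dkk3 and Mylpf were each lost on leaving out any of 12, 11 and 15 single strains. The endothelial (7.14%), smooth muscle (8.33%) and atrial (11.1%) called shares rest on 1 gene each, beside 7.26% over all genes. The part of these cell types in the responses was not tested.

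**Figure D2:**
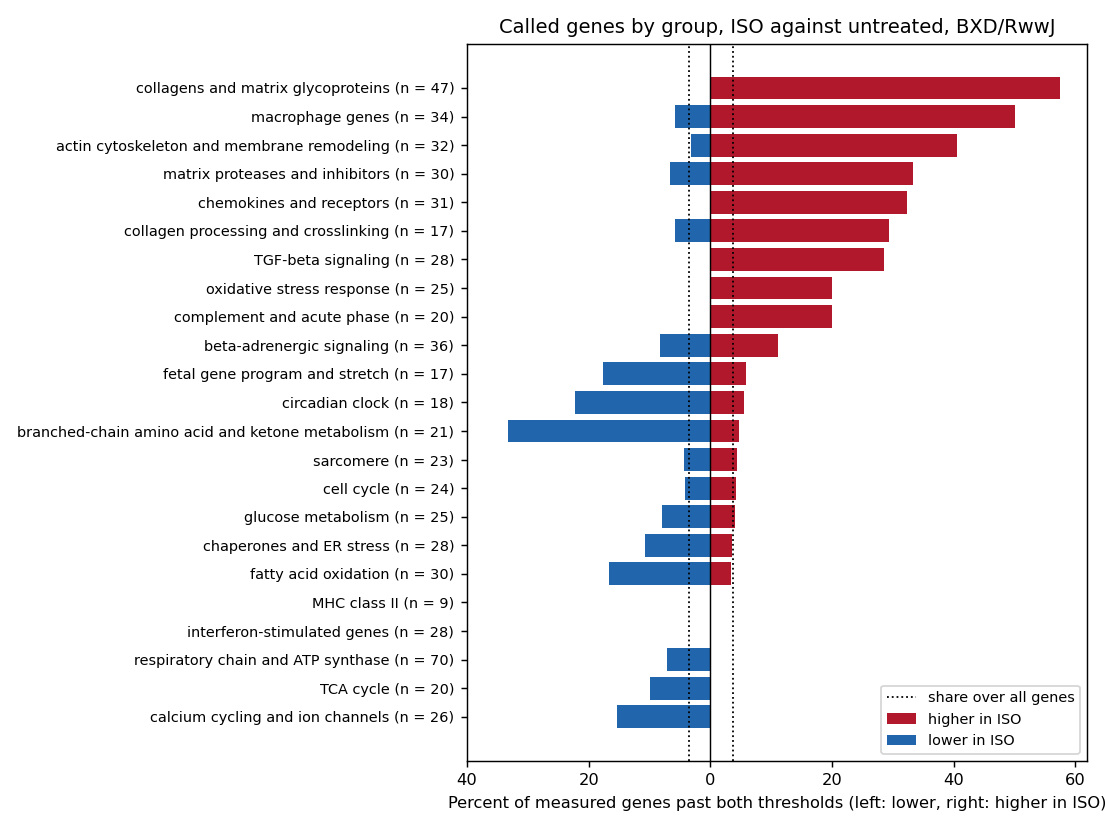
Share of measured genes called higher (red, right) or lower (blue, left) in ISO than in untreated hearts of the 22 BXD/RwwJ strains, by gene list, with dotted lines at the shares over all genes (3.73% and 3.53%). Among the pathway lists drawn, which leave out the cell type markers, collagens and matrix glycoproteins and macrophage genes reach the highest shares upward, and branched-chain amino acid and ketone metabolism the highest downward.

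The pathway that ISO enters was itself altered. Gnb3 is a beta subunit of heterotrimeric G proteins. Its level was 5.07, 5.74 and 6.89 in ISO hearts and 6.22, 7.35 and 8.30 in untreated hearts, and it was lower in ISO in all 22 strains, though by less than 0.01 in the BXD50/RwwJ pair. The response was -1.36 ± 0.12 (SE), or 0.39-fold (adjusted p = 9.1e-08). Ramp1, a subunit that shapes the calcitonin gene-related peptide receptor, had 5.54, 6.01 and 6.88 in ISO hearts and 6.04, 7.03 and 8.16 in untreated hearts. It too was lower in every strain and fell by 1.14 ± 0.09 (adjusted p = 5.7e-08).

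The receptor and its regulators changed by smaller amounts. Adrb1, the beta-1 adrenergic receptor, was at 5.15, 5.89 and 6.56 in ISO hearts and 5.55, 6.32 and 6.62 in untreated hearts, ranges that overlap almost throughout. It fell by 0.32 ± 0.08 (adjusted p = 0.014) and was lower in 16 strains. Grk5, a kinase that desensitizes the receptor, had 7.19, 9.02 and 9.81 in ISO hearts and 7.03, 8.10 and 9.10 in untreated hearts. Grk5 rose by 0.76 ± 0.13 in 21 strains, with BXD79/RwwJ moving the other way at -1.66.

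Pde4d, a phosphodiesterase that degrades cyclic AMP, rose by 0.42 ± 0.05 (adjusted p = 1.3e-05) in 21 strains, and Gnai2, an inhibitory G protein subunit, by 0.22 ± 0.05 in 19. In the list of beta-adrenergic signaling 4 of 36 genes rose and 3 fell, the remaining calls being the adenylyl cyclases Adcy7 upward and Adcy6 downward. The called share was 19.4%, beside 7.26% over all genes, and the median of the list was 0.02.

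Contractile genes showed a fall in the slow myosin. Myh7, the beta myosin heavy chain that rodents express before birth and in stressed ventricles, was at 5.02, 6.87 and 8.37 in ISO hearts and 6.24, 7.75 and 9.21 in untreated hearts. It was lower in ISO in 19 of 22 strains, and the change was -0.87 ± 0.18 (adjusted p = 0.0017). BXD68/RwwJ fell by 2.23, while BXD74/RwwJ, BXD55/RwwJ and BXD50/RwwJ stood at 0.07, 0.42 and 0.65. Myh6, the fast alpha chain of the adult mouse ventricle, gave -0.07 ± 0.02 at its brighter probe (adjusted p = 0.098), a probe near the top of the scale at a median of 14.74 in ISO hearts and 14.85 in untreated hearts. So near the top, this probe has little room to show a change. The dimmer Myh6 probe, at 11.39 to 13.32 in untreated hearts, was also lower on average in ISO.

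The natriuretic peptides, which stretched cardiomyocytes release, did not pass. Nppa had levels of 10.21, 13.83 and 15.12 in ISO hearts and 11.77, 13.99 and 14.70 in untreated hearts, with 10 strains higher in ISO and a mean of -0.32 ± 0.25 (adjusted p = 0.57). It differed by -3.31 in BXD64/RwwJ and by 1.77 in BXD66/RwwJ. Nppb had 12.29, 13.38 and 14.31 in ISO hearts and 10.94, 13.23 and 14.21 in untreated hearts, with 11 strains higher and a mean of 0.31 ± 0.17 (adjusted p = 0.34).

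Of 17 genes of the fetal program, 3 fell, Myh7, the skeletal actin Acta1 by 0.68 and the slow troponin T Tnnt1 by 0.41, and 1 rose, the actinin Actn1 by 0.40. In the sarcomere list Pdlim3, a Z-disc protein, rose by 0.71 and Myh7 fell, while 21 of 23 genes did not pass, a called share (8.7%) near that over all genes. Calcium cycling and ion channels counted 4 of 26 lower and 0 higher. Those were Hrc, which binds calcium in the sarcoplasmic reticulum, by 0.32, the pacemaker channel Hcn2 by 0.41, and the channel subunits Cacna2d1 and Kcnip2 by 0.31 and 0.50. The call of Kcnip2 was lost on leaving out any of 16 single strains. The list held 6 such falls without BXD50/RwwJ.

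Most calls among metabolic genes were falls. Cpt2, which completes the entry of long-chain fatty acids into mitochondria, had 11.44, 11.88 and 12.34 in ISO hearts and 11.91, 12.11 and 12.62 in untreated hearts. The drop was small but present in all 22 strains, -0.34 ± 0.04 (adjusted p = 4.9e-06), and strains ranged from -0.73 to -0.09. Of 30 genes of fatty acid oxidation, 5 fell and 1 rose, a called share of 20%, beside 7.26% over all genes. Acot1, a thioesterase induced by fatty acids, fell by 0.93, and Eci1 and Decr1, needed for unsaturated fatty acids, by 0.36 and 0.31. The gene that rose was Pdk4, the kinase that restrains pyruvate oxidation, by 0.66 ± 0.14 in 17 strains. Without BXD50/RwwJ, 9 of the 30 fell.

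Branched-chain amino acid and ketone genes had 7 of 21 members lower and 1 higher. Dbt, Pccb and Ivd, enzymes of branched-chain breakdown, fell by 0.41, 0.31 and 0.31. Bdh1, which interconverts the ketone bodies, had 10.51, 11.18 and 11.93 in ISO hearts and 9.67, 10.53 and 11.44 in untreated hearts. It was higher in 21 strains and rose by 0.65 ± 0.09 (adjusted p = 4.1e-05), with BXD79/RwwJ the exception at -0.48.

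The tricarboxylic acid (TCA) cycle counted 2 of 20 lower, Fh1 by 0.22 and Idh2 by 0.26, with 0 higher. This is a called share of 10%, near the 7.26% over all genes. The respiratory chain had 5 of 70 genes called, all lower, including Atp5c1 by 0.23 and Cox6c by 0.26. That share of 7.14% is close to the 7.26% called over all genes in either direction, and 3.53% of all genes were called lower. Among 25 genes of glucose metabolism Pdk2 and Pfkfb2 fell by 0.27 and 0.34, and Pdk4, counted above, rose. Of these genes 18 were higher on average, with a median of 0.09. Outside the lists, Fbp2, the muscle fructose bisphosphatase, was at 7.93, 9.07 and 9.84 in ISO hearts and 9.10, 9.90 and 10.87 in untreated hearts, and it fell by 0.93 ± 0.08 (adjusted p = 4.4e-08) with every strain lower.

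The clock list had 4 of 18 genes lower and 1 higher, with Tef, Ciart and Nr1d2 falling by 0.37, 0.55 and 0.23 and the repressor Nfil3 rising by 0.34. The hour at which hearts were taken is not given in the sources used here. Oxidative stress genes counted 5 of 25 higher, the extracellular superoxide dismutase Sod3 at 0.55 in all 22 strains, the glutathione peroxidases Gpx1 and Gpx3 at 0.45 and 0.50, and Srxn1 at 0.49, together with Nox4. Among 28 chaperones Hspb7 rose by 0.26, while Hspb8, Pdia6 and Hspd1 fell by 0.27, 0.41 and 0.28. Without BXD50/RwwJ the chaperone list had 2 rises and 6 falls. Cell cycle genes were called at 2 of 24, the inhibitor Cdkn1a at 0.70 and the replication helicase subunit Mcm2 at -0.26, a share (8.33%) near the 7.26% over all genes.

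Actin and membrane remodeling genes rose at 13 of 32 and fell at 1, with Ctnnal1, a catenin-like protein, as the leader. Ctnnal1 was at 10.48, 11.79 and 12.12 in ISO hearts and 10.06, 10.38 and 11.18 in untreated hearts, higher in all 22 strains, and it rose by 1.23 ± 0.09 (adjusted p = 1.3e-08). S100a6, Lcp1 and Anxa1 rose by 0.43, 0.53 and 0.37.

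Some of the steadiest responses belong to genes outside the pathway and cell type lists. Of 14 genes taken as the leading ones of the whole series, 9 rose and 4 fell, but that list was chosen on these same arrays and is no independent evidence of direction. It includes Dct, Snai3 and Tmem82. Dct, dopachrome tautomerase, is an enzyme of melanin synthesis in pigment cells. It stood at 8.07, 8.91 and 9.71 in ISO hearts and 5.57, 7.13 and 8.37 in untreated hearts. The ranges touch only at their ends, and each strain was higher in ISO, by 0.91 in BXD87/RwwJ to 3.25 in BXD66/RwwJ. The mean was 1.95 ± 0.13 (SE), or 3.85-fold (adjusted p = 4.9e-09), and even the BXD50/RwwJ pair gave 1.45.

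Ccn5, a matricellular growth regulator, rose by 1.41 ± 0.25 and Olfml2b, a secreted olfactomedin-like protein, by 1.29 ± 0.16. Cdo1, cysteine dioxygenase, rose by 1.51 ± 0.26, with a drop of 1.91 in BXD50/RwwJ against a rise of 3.83 in BXD56/RwwJ. Snai3, of the Snail family of zinc finger factors, had 5.08, 6.14 and 8.24 in ISO hearts and 6.34, 7.80 and 8.84 in untreated hearts. It fell by 1.63 ± 0.18 (adjusted p = 1.5e-06) and was lower in 21 strains. Lypd2, Tmem82 and Dnaic1 were lower in every strain, by 1.08, 1.05 and 1.0 on average, and Bex4 in all but BXD50/RwwJ, by 0.99. Ano10, of the anoctamin family, fell by 0.89 ± 0.14 in 22 of 22 strains, by between 0.05 in BXD75/RwwJ and 2.66 in BXD66/RwwJ.

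The strains differed in how much of the shared response they showed. The share of the 1611 called probes that moved in the called direction is a description, since the same strains set the calls. It was highest in BXD66/RwwJ, BXD71/RwwJ and BXD74/RwwJ, at 96.4%, 95.7% and 95.3%. The lowest shares were 76.3% in BXD79/RwwJ, 68.2% in BXD87/RwwJ and 44.4% in BXD50/RwwJ. Over the 810 probes called higher, the median difference was 0.81 in BXD66/RwwJ and 0.12 in BXD87/RwwJ. BXD79/RwwJ was split, with a median of 0.62 over those probes but only 539 of the 801 probes called lower moving down.

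A second reading of the same spread comes from the 1300 probes called in the 54 other strains, a fit that no BXD/RwwJ array entered. Array position follows treatment in nearly all of those strains too, so this reading does not set position and treatment apart. The share moving in the direction of those strains was 53% to 91.2% in the BXD/RwwJ strains, with a median of 82.3%, and BXD66/RwwJ and BXD50/RwwJ again took the ends. The corresponding ranges were 44.5% to 90% in BXD/TyJ strains and 26.5% to 90.8% in the 54 other strains, though there the same strains set the calls.

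**Figure D3:**
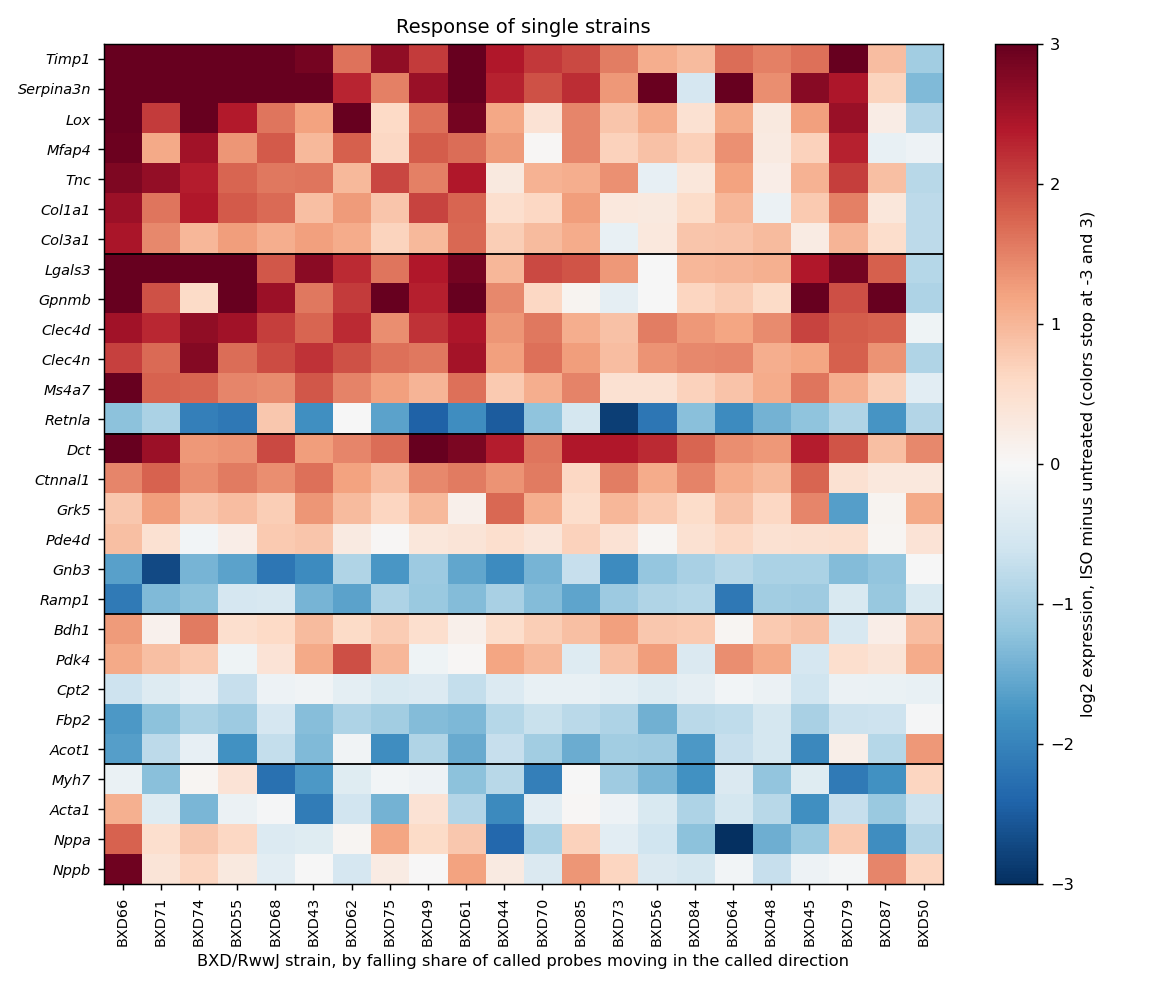
ISO minus untreated log2 expression of 28 genes (rows, grouped as matrix, macrophage, adrenergic and steadiest, metabolic, and contractile and natriuretic) in 22 BXD/RwwJ strains (columns); red is higher and blue lower in ISO, with colors capped at 3 log2 units. Timp1 spans -1.05 to 4.30, while Dct is red and Ramp1 blue in every column.

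The leading genes were read on each BeadChip, the only batch the labels give. The mean Timp1 response was 2.88, 1.31, 2.74, 1.45, 2.11 and 2.72 on BeadChips 8, 9, 11, 14, 15 and 16. BeadChip 9 holds BXD50/RwwJ, and BeadChip 14 holds 2 strains only. Dct responses lay between 1.65 and 2.23 on all 6, and Gnb3 between -2.04 and -0.93. Of the 1611 called probes, 86.8% to 99.6% had a BeadChip mean in the called direction, lowest on BeadChip 14. The F test for a difference between BeadChips in the response found 0 probes at adjusted p under 0.05 (limma) and 1109 (4.32%) at an unadjusted p under 0.05.

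To ask which responses vary together across strains, 15 pairs among Timp1, Serpina3n, Lgals3, Tnc, Myh7 and Bdh1 were compared by the differences of the 22 strains. All 6 pairs among the matrix and macrophage genes correlated. The closest was Timp1 with Tnc, at Pearson's r = 0.89 and Spearman's rho = 0.88 (permutation p = 1e-05 each, the smallest the permutations can give, with adjusted values of 3.7e-05 and 5.0e-05). Within BeadChips r was 0.88, and without the strains farthest from the median Timp1 response, BXD50/RwwJ and BXD61/RwwJ, it was 0.84.

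Timp1 with Lgals3 gave r = 0.81 and rho = 0.77 (permutation, adjusted p = 3.7e-05 and 2.2e-04), 0.82 within BeadChips and 0.76 without the same strains. The other pairs of this set had r between 0.72 and 0.87, and their lowest value without the farthest 2 strains was 0.59, for Serpina3n with Tnc. Myh7 and Bdh1 stood apart. Timp1 and Myh7 gave r = -0.11 and rho = 0.02 (permutation, adjusted p = 0.98 and 0.95), and the 8 pairs that join Myh7 or Bdh1 to the matrix and macrophage genes all had r between -0.11 and 0.07. Myh7 with Bdh1 gave r = 0.37 and rho = 0.33 (permutation, adjusted p = 0.19 and 0.29). With 22 strains an r of moderate size can be missed. Strains share parental haplotypes, which these tests do not take into account.

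**Figure D4:**
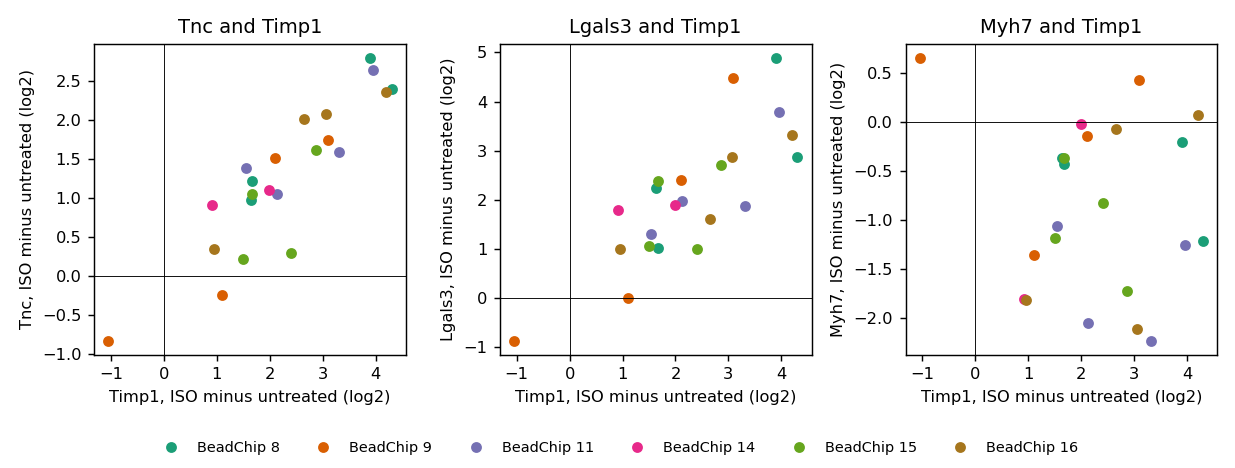
ISO minus untreated log2 expression of Tnc, Lgals3 and Myh7 (vertical axes) against that of Timp1 (horizontal axis) in 22 BXD/RwwJ strains, 1 point per strain, colored by BeadChip. Tnc (r = 0.89) and Lgals3 (r = 0.81) follow Timp1, with BXD50/RwwJ at the lower left, and Myh7 (r = -0.11) does not.

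The response of the BXD/RwwJ strains was tested against that of the older BXD/TyJ strains and of the 54 other strains in one limma fit of all 87 strains. All BXD/RwwJ pairs lie on a single set of slides, while the other families spread over 3 sets, so family and slide set partly coincide. Limiting the contrasts to that set left 22, 5 and 25 strains, and to strains on a single BeadChip 22, 8 and 40, with 0 calls in each. Against BXD/TyJ, 0 of 25697 probes passed (0%), 1782 (6.93%) had an unadjusted p under 0.05, and the smallest adjusted p was 0.58. Against the other strains 0 passed (0%), with 821 (3.19%) at an unadjusted p under 0.05 and a smallest adjusted p of 0.23. Slc9a9, a sodium-proton exchanger, differed by 0.36 ± 0.09 from BXD/TyJ strains (adjusted p = 0.58), and Alyref, an RNA export factor, by -0.25 ± 0.07 from other strains. Among the strains whose arrays match, 1 probe passed against BXD/TyJ, for Irgm1, an interferon-inducible GTPase, at 0.99. Only 4 of the 11 BXD/TyJ strains remained there, beside 17 of 22 BXD/RwwJ strains. The median standard error was 0.12 for the contrast with BXD/TyJ, 0.09 for that with other strains and 0.05 for the BXD/RwwJ response itself, so that modest differences would be missed.

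At the single genes named here no difference between the families passed the test. Timp1 changed by 2.27 in BXD/RwwJ strains, against 1.69 in BXD/TyJ strains and 1.73 in other strains, differences of 0.58 ± 0.53 and 0.54 ± 0.36. Lgals3 changed by 2.07, against 1.12 and 1.56, differences of 0.96 ± 0.57 and 0.52 ± 0.39. Myh7 changed by -0.87 in BXD/RwwJ strains, against -0.09 in BXD/TyJ strains and -0.60 in other strains, and its difference from BXD/TyJ strains was -0.78 ± 0.44 (adjusted p = 0.72). Adrb1 changed by -0.32, against 0.02 and -0.33, a difference of -0.33 ± 0.16 from BXD/TyJ strains. Dct and Ctnnal1 differed from BXD/TyJ strains by 0.16 ± 0.41 and 0.09 ± 0.26.

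The called genes of the other strains mostly carried over, though array position follows treatment in nearly all of those strains too. Of 657 probes called higher in the 54 other strains, 644 (98.0%) were higher on average in BXD/RwwJ strains and 440 (67.0%) were called there. Of 643 called lower, 623 (96.9%) were lower and 334 (51.9%) called. The reverse share was smaller, with 774 of the 1611 BXD/RwwJ calls (48%) also called in the other strains in the same direction. The median log2 fold change of the 657 probes was 0.37 in BXD/RwwJ strains, 0.28 in BXD/TyJ strains and 0.35 in the other strains. That of the 643 probes was -0.23 in BXD/RwwJ strains, -0.30 in BXD/TyJ strains and -0.28 in the other strains, whose own arrays set these calls.

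The spread of the response among strains was smallest here by the plain measure. The median SD of a probe's difference was 0.22 in BXD/RwwJ, 0.30 in BXD/TyJ and 0.37 in other strains. Counting only strains with a single pair on a single BeadChip of the same set of slides, it was 0.22 over 22 BXD/RwwJ strains, 0.15 over 3 BXD/TyJ strains and 0.22 over 23 other strains.

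**Figure D5:**
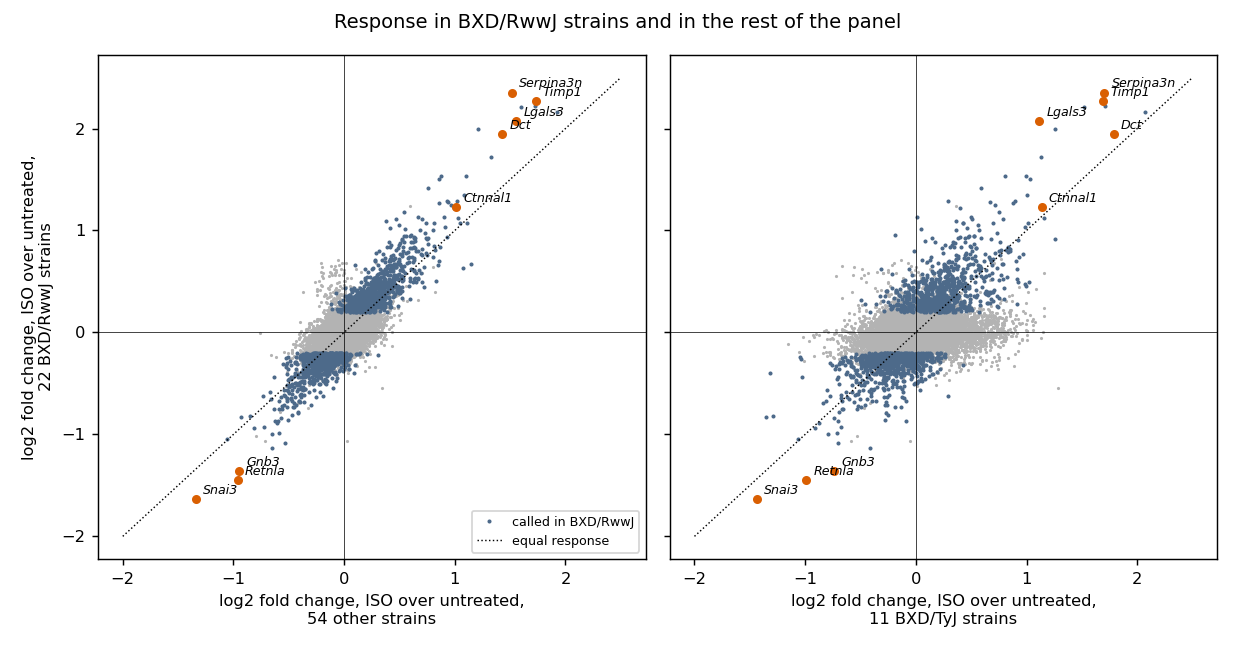
Mean log2 fold change of every probe, ISO over untreated, in 22 BXD/RwwJ strains (vertical axis) against 54 other strains (left) and 11 BXD/TyJ strains (right); blue points were called in BXD/RwwJ strains and orange points are named genes. Timp1 lies at 2.27 in BXD/RwwJ, 1.73 in other and 1.69 in BXD/TyJ strains, and 0 probes passed the test of the difference in either comparison.

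The parental strains give a frame for the range of the lines, with C57BL/6J measured as pairs on BeadChips 14 and 2, and DBA/2J on BeadChips 2 and 20. Timp1 responded by 1.44 and 0.41 in C57BL/6J and by 1.71 and -0.34 in DBA/2J. Of the 22 BXD/RwwJ strains, 13 responded more strongly than any of these 4 parental pairs, up to 4.30 in BXD61/RwwJ. The same count was 15 for Lgals3, 6 for Serpina3n, 1 for Dct and 0 for Ctnnal1, and 4 parental pairs are too few to set limits. Lgals3 responded by 1.39 and 1.10 in C57BL/6J and by 1.24 and -0.33 in DBA/2J, and Dct by 3.21 and 1.14 and by 0.78 and 0.72. The paired values of one parent differed by as much as many of the strains did.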

How the data were processed

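Left ventricular RNA was profiled on Illumina MouseRef-8 v2.0 arrays, which have 1 color. The values tested are the deposited log2 values, which the authors made with neqc in limma (normexp background correction on control probes, an offset of 16, quantile normalization). The deposited intensity values and detection p-values, exported by the authors with GenomeStudio 2010.3, were used to describe signal, count detected probes and remake the log2 values. The methods mention removing probes over known SNPs; this was not checked here. Gene symbols came from the platform annotation (23978 of 25697 probes), and Adrb1 from a probe list of the study.

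ISO minus untreated differences were taken within each strain and tested with limma 3.58.1 (lmFit, eBayes; R 4.3.3) and Benjamini-Hochberg adjustment over all 25697 probes, with calls at adjusted p under 0.05 and a log2 fold change beyond 0.2 in either direction. Strain families were compared on the same differences. Pairing comes from the strain label. Deviations from the group means of the 2 arrays of a strain correlated at a median of 0.55, over 0.1 in 21 of 22 strains. Between different strains the median was -0.03, and between different strains of the same BeadChip it was 0.12. Levels are given as lowest, median and highest strain.

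Named genes were the 12 largest rises and 12 largest falls of one direction in at least 80% of strains, up to 4 called members per list, fixed cardiac genes, the most variable genes, and those of smallest p in the contrasts; Adcy6, Adcy7, Folr2, Timp4, Mmp13, P4ha2, Nox4 and Irgm1 complete short counts and were chosen after their values were seen. The strains and lists were chosen with earlier results of these data known. Klf4, a further fixed gene, is not described. Leaving out BXD50/RwwJ, or BXD56/RwwJ with BXD85/RwwJ, was chosen after seeing the data. The code was tested on simulated data. Array precision is limited by the number of strains.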

Additional observations from a re-analysis of the deposited data

How the results depend on the processing

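The count of 1611 calls (810 higher, 801 lower) was unchanged when values were remade with neqc and when arrays of connectivity z under -2.5 were dropped, which removes no pair. It was 812 (460 and 352) with no background correction, 790 (431 and 359) with no strain pairing as a replicate block and 637 (342 and 295) when the untreated-only strains were added to that unpaired fit. Without the fold threshold 1275 probes were lower. Leaving out BeadChip 8 gave 517 higher. Leaving out single strains gave between 1417 and 2017 calls, the highest without BXD50/RwwJ, between 708 and 1061 higher and between 709 and 956 lower. Against other strains, median scaling let 1 probe pass, for Gemin4 at -0.31, and against BXD/TyJ strains the matched strains alone let 1 pass, for Irgm1. In the other settings of both contrasts the count was 0. With no strain block 27 named genes lost their call, Myh7, Timp1 and the other leading genes not among them; Myh7 lost it once the untreated-only strains were added. No named call changed sign with a strain or BeadChip left out. On single BeadChips, which hold 4 or 2 strains and have no test, some weak responses had the other sign: Pfkfb2 (0.044) on BeadChip 8, Gnai2 (-0.0032), Kcnip2 (0.11) and Adrb1 (0.16) on BeadChip 9, Mcm2 (0.00017) on BeadChip 11, Actn1 (-0.20), Atp5c1 (0.016), Pdk2 (0.0012), Gpx3 (-0.035), Anxa1 (-0.092), Cspg4 (-0.050) and Dkk3 (-0.75) on BeadChip 14, Mcpt4 (-0.19) and Cpa3 (-0.20) on BeadChip 15, and Cacna2d1 (0.054) on BeadChip 16. The dimmer Myh6 probe turned to 0.015 in the unpaired fit with untreated-only strains. The 6 called relations among Timp1, Serpina3n, Lgals3 and Tnc kept their calls in every alternative tried. Dim probes limit what can be seen, since about as many probes were undetected as detected.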

Other observations

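The strains with an untreated array only stood apart from the 22 paired untreated arrays at several leading genes. BXD86/RwwJ, in position B of BeadChip 24, had a Timp1 level of 9.97, a Dct level of 9.34 and a Ctnnal1 level of 11.61, each above the highest paired untreated value (8.59, 8.37 and 11.18). Its Tmem82 level of 7.98 lay just below their lowest, 8.00. BXD69/RwwJ, in position A of the same BeadChip, had 8.5 at Timp1 and 6.73 at Dct, inside the paired range. Its Ctnnal1 at 9.77 and Tmem82 at 10.62 lay just outside that range. This array had the lowest connectivity z of the untreated BXD/RwwJ arrays, -2.55, and 40.2% of its probes had a detection p under 0.05.

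Liver transcripts appeared in hearts of both groups, at uneven levels. Over 14 liver genes chosen after their values were seen, the mean log2 level was 11.1 in the ISO array and 6.39 in the untreated array of BXD56/RwwJ, and 9.63 and 5.25 in those of BXD85/RwwJ, strains in which each array correlated better with an array of another strain than with its own partner. The summed linear level was 396, 3190 and 88883 (lowest, median and highest) in ISO hearts and 545, 2092 and 10246 in untreated hearts. Of the 14 genes, 11 were detected in at least 22 of the paired arrays. The mean log2 level in untreated arrays reached 8.38 in BXD87/RwwJ, 8.31 in BXD73/RwwJ and 8.19 in BXD84/RwwJ. Leaving out BXD56/RwwJ and BXD85/RwwJ gave 1520 called probes.

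Sln, sarcolipin, an inhibitor of the calcium pump that in adult mice marks atrial muscle, was among the genes whose ISO response had the largest SD over strains. Its level was 4.40, 4.82 and 9.96 in ISO hearts and 4.52, 5.05 and 12.19 in untreated hearts, with differences of -7.50 in BXD87/RwwJ, -6.66 in BXD56/RwwJ and 3.17 in BXD68/RwwJ. The summed level of the atrial marker list, which holds Nppa among others, was 3089, 16887 and 36787 in ISO hearts and 4472, 19621 and 45385 in untreated hearts.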
